A study of Mus musculus with 4 samples.

Results

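The Hist1 locus of the mouse is the main cluster of replication-dependent histone genes, on chromosome 13. It was taken here as the window from 21.7 to 23.9 Mb of build mm9, and its members were the Rad21 peaks lying fully inside it. The window was set by coordinates and not by measured values, though earlier results of these data were known when it was chosen. The 4 peak lists placed 69 of their 92937 peaks in this window. Peaks of the 4 lists that touched or overlapped were merged, which gave 26 regions in the window out of 34743 on chromosomes 1 to 19 and X.

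Rad21 is the kleisin subunit of cohesin, and its binding was measured by chromatin immunoprecipitation with sequencing (ChIP-seq) in v-Abl transformed pro-B cell lines, which are mouse B cell progenitors transformed by a viral tyrosine kinase. The study asked about roles of 53BP1, a protein of DNA double-strand break repair, in V(D)J recombination. There were 2 libraries labelled wild type (WT) and 2 labelled 53BP1 knockout. All 4 came from RAG1-deficient cells with the Emu-Bcl2 transgene, which drives an anti-apoptotic protein in B lineage cells, and all received STI-571 at 3 uM over 4 days. Cells without RAG1 cannot cut their antigen receptor genes. STI-571 inhibits the v-Abl kinase and arrests such lines in the G1 phase. Peak lists hold no measure of 53BP1, so the genotypes rest on the labels. On the antibody the labels conflict: titles and protocol give Rad21, the treatment entries of all samples give 53BP1, and the former is followed here. Whether same-genotype libraries stem from different cultures or clones is not stated in the labels, so their spread may be technical. Sequencing depth is unknown, because the lists hold peaks and no read counts.

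Replication-dependent histone genes code for the core histones H2A, H2B, H3 and H4 and the linker histone H1, which package newly made DNA. They are transcribed mainly in S phase, so in cells held in G1 they are largely outside their period of high transcription. The genes are short, have no introns and stand close together, often as head-to-head pairs of an H2A and an H2B gene that share 1 promoter stretch. Cohesin extrudes loops of chromatin and is held at many sites by the factor CTCF, and cohesin peaks often mark loop anchors and active promoters. Between the histone gene blocks of this locus lies a long array of Vmn1r genes, which code for pheromone receptors of vomeronasal neurons.

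RefSeq's gene table of GRCm38.p6, a later build than that of the peak lists, gave the order of the genes but not their mm9 positions. From H2bc13 to H2ac1 it listed 255 genes, of which 55 were histone genes (1 of them a pseudogene), 75 were Vmn1r genes or pseudogenes and 77 were tRNA genes. Before the receptor genes stood 24 histone genes, with 1 gene for H1, 8 each for H2A and H2B, 2 for H3 and 5 for H4. After the receptor genes stood 31 histone genes, with 5 genes for H1, 6 for H2A, 7 for H2B, 7 for H3 and 6 for H4. The receptor run itself held 87 genes, 75 of them Vmn1r genes or pseudogenes, with no histone and no tRNA gene among them. The 14 other protein-coding genes included Hfe, a regulator of iron uptake, the butyrophilin genes Btn1a1 and Btn2a2, Trim38, and the phosphate transporter family genes Slc17a1 to Slc17a4. Histone and tRNA genes thus flanked the receptor array on both sides in the gene order. The window was split on this layout into a proximal histone block (21.7 to 22.2 Mb), a receptor gene stretch (22.2 to 23.5 Mb) and a distal histone block (23.5 to 23.9 Mb), at approximate mm9 borders from background knowledge. Which gene each peak touched was not analysed here, since no mm9 annotation was used.

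Promoter sequences of these genes are shown for 2 reasons. Some hold stretches copied within the cluster, and a short read lying wholly in such a stretch matches more than 1 locus. They also carry the elements that regulate histone genes. RefSeq promoters of GRCm38.p6, 250 bases before to 50 after each start, were found for 51 of the 55 histone genes (52 promoters). Stretches of 50 bases also present at another promoter locus occurred in 8 of the 52 (15.4%), against 7.90% of all 32851 promoters. In 6 of the 52 (11.5%) they made up more than 50% of the stretches, against 3.66% of all promoters. The H2B genes H2bc23 and H4bc24, the latter carrying the older symbol Hist1h2br, had identical promoters on opposite strands at 2 loci. Of 33 receptor gene promoters, 15 (45.5%) held such a stretch, and in none did they pass 49.8%. The 250 bases before the start are printed 5′ to 3′ for the identical pair, at chr13:21810200-21810449 on the minus strand (H2bc23) and chr13:21833493-21833742 on the plus strand (H4bc24), and for the H1 gene H1f5 at chr13:21780626-21780875 on the minus strand, all in GRCm38.p6 and with the letters of the motifs given next in capitals.
H2bc23 and H4bc24: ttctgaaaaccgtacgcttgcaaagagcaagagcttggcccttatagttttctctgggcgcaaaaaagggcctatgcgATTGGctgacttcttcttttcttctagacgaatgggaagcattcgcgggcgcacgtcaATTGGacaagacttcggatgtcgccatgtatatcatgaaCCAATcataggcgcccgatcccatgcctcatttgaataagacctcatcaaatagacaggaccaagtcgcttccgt
H1f5: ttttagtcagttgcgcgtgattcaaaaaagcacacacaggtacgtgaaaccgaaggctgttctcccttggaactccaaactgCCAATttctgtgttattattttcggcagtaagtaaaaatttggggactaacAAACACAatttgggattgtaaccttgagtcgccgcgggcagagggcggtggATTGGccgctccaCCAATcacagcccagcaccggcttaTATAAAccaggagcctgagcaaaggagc

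Letters of 4 elements were searched on both strands of the 300-base promoters, and no motif contains another. CCAAT, the letters that the factor NF-Y binds, stood in 44 of the 52 histone promoters (84.6%), against 37.4% of all promoters. All promoters of the H1, H2A, H2B and H3 genes held it, and 3 of the 11 H4 promoters did. The octamer ATTTGCAT, known from H2B promoters, stood in 6 of 15 H2B and 5 of 13 H2A promoters, against 1.74% of all promoters. It stood in none of the H1, H3 or H4 genes. Head-to-head H2A and H2B genes, such as H2bc12 and H2ac12, can share a promoter stretch, so 1 site may be counted in both families. The 15 H2B promoters came from 14 genes. AAACACA, the element named H1 box, stood in 5 of 6 H1 promoters (83.3%), against 7.18% of all promoters. TATAAA, the letters of a TATA box, stood in 31 of the 52 (59.6%), against 13.6% of all. Of the 33 receptor gene promoters, 27.3% held AAACACA, above the 17.3% of all 52 histone promoters. CCAAT stood in 36.4% of the receptor gene promoters, TATAAA in 27.3% and the octamer in 9.09%. The median share of G and C bases was 45.2% in histone, 36.3% in receptor and 52.7% in all promoters. The part of base composition in these motif shares was not tested. The printed pair carries 3 CCAAT boxes and no TATAAA, and H1f5 carries 1 H1 box, 3 CCAAT boxes and 1 TATAAA. A match is a run of letters and not a measured binding site.

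Rad21 peaks stood in both histone blocks and were nearly absent from the receptor gene stretch between them. In the order WT replicate 1, WT replicate 2, knockout replicate 1 and knockout replicate 2, the proximal histone block held 5, 8, 9 and 8 peaks. The distal histone block held 7, 8, 10 and 10 peaks in the same order. The receptor gene stretch held 1 peak in every library, at its distal edge. Both blocks thus held peaks in each of the 4 libraries, and the stretch was nearly empty in each of them.

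**Figure D1:**
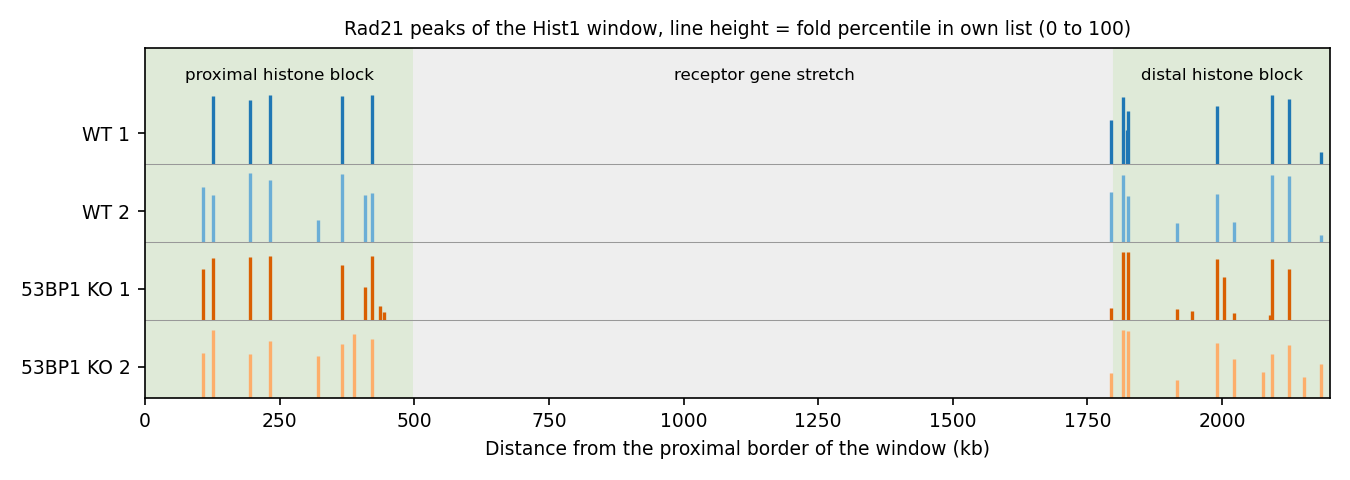
Each line is a Rad21 peak of 1 library at its distance from the proximal border of the window (kb), and its height is the percentile of its fold enrichment in its own list (0 to 100). Peaks stand in both histone blocks (green) in all 4 libraries, while the receptor gene stretch (grey) holds 1 peak per library at its distal edge.

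In peaks per Mb, the 2 histone blocks together held 13.3 in WT replicate 1, 17.8 in WT replicate 2, 21.1 in knockout replicate 1 and 20.0 in knockout replicate 2. Peak density in the stretch was 0.769 per Mb in each. Blocks thus exceeded the stretch by 17.3 ± 3.44 peaks per Mb (SD, n = 4 libraries), 23.5-fold on the means. This difference had the same direction in 4 of 4 libraries. The two-sided exact sign-flip permutation p was 0.125, the lowest that 4 libraries allow (0.156 after Benjamini-Hochberg adjustment over 5 such tests). The segments were chosen with earlier results of these data known, which the p-value does not take into account. Where the minimum −log10 q was 5, the difference was 6.11 peaks per Mb with an exact permutation p of 0.25, and knockout replicate 2 had no peak in either kind of segment. Promoters with a stretch copied elsewhere were more frequent among the receptor genes (45.5%) than among the histone genes (15.4%), as given above. Promoters with more than 50% of their stretches copied went the other way, with 0 of 33 for the receptor genes and 6 of 52 (11.5%) for the histone genes. How the authors treated reads with several placements is not given in the sources used here, and its part in the sparse stretch was not tested.

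Compared with the rest of chromosome 13, the histone blocks were denser in peaks and the receptor gene stretch sparser, in all 4 libraries. The rest of the chromosome, taken up to the last peak of any list (118 Mb), held 6.84, 7.29, 8.04 and 7.42 peaks per Mb in the same order of libraries. The proximal block stood at 1.46, 2.2, 2.24 and 2.16 times that density. The distal block stood at 2.56, 2.74, 3.11 and 3.37 times that density, above the proximal block in all 4 libraries. The stretch stood at 0.112, 0.106, 0.0957 and 0.104 times that density.

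**Figure D2:**
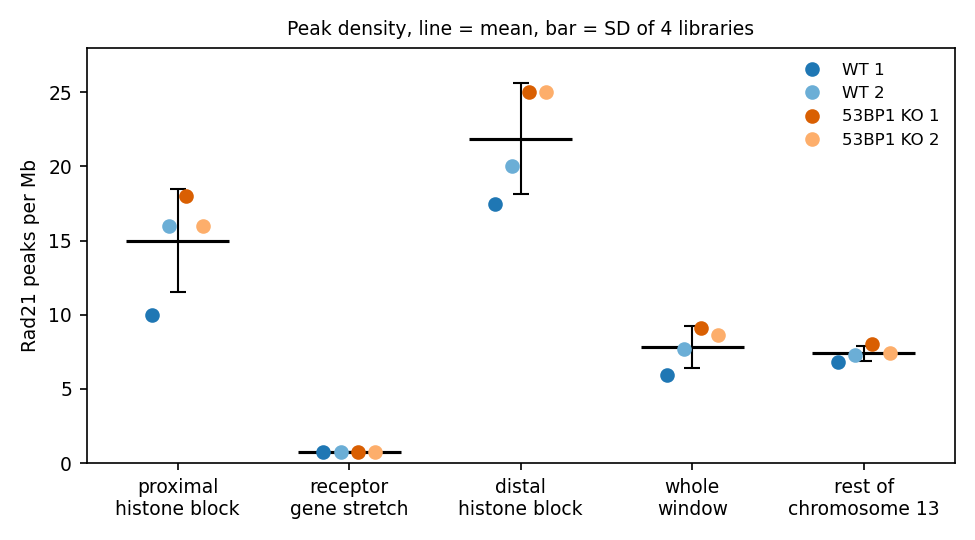
Rad21 peaks per Mb in each segment of the Hist1 window, in the whole window and on the rest of chromosome 13, with 1 point per library, a line at the mean and a bar of 1 SD over the 4 libraries. Both histone blocks lie above the rest of the chromosome in every library, the receptor gene stretch lies at 0.769 in every library, and the whole window lies near the rest.

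Over the whole window, with all listed peaks, the density was close to that of the rest. It held 5.91, 7.73, 9.09 and 8.64 peaks per Mb, which was 0.864, 1.06, 1.13 and 1.16 times the density of the rest of the chromosome. The mean log2 ratio was 0.07 ± 0.19 (SD, n = 4), positive in 3 of 4 libraries, with a two-sided exact sign-flip permutation p of 0.5, so a difference in peak density was not shown for the full lists. Among peaks of 4-fold or more the ratios were 1.42, 1.5, 1.34 and 1.63, above 1 in 4 of 4 libraries, with a mean log2 ratio of 0.55 and an exact permutation p of 0.125. Where the minimum −log10 q was 5 they were 2.28, 1.57, 1.98 and 0, the last being knockout replicate 2, which had no such peak in the window. Set against the rest of all placed chromosomes, the mean log2 ratio was -0.19, the opposite direction. The ratios were 0.709, 0.885, 0.954 and 0.9997, below 1 in 4 of 4 libraries, with an exact permutation p of 0.125. Among 52 windows of 2.2 Mb laid along chromosome 13, the Hist1 window ranked 28 from the lowest, with a mean of 17.25 peaks over the libraries where the median window had 16.25 and the windows ranged from 0.5 to 40.75.

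The 22 bins of 100 kb show how the peaks were spread within the blocks. In the same order of libraries, the bin from 21.8 to 21.9 Mb was the fullest, with 2, 3, 3 and 3 peaks. Its mean of 2.75 exceeded that of 92.7% of the bins of chromosome 13. The bin from 23.7 to 23.8 Mb followed with 1, 2, 4 and 3 peaks and a mean of 2.5, and the bin from 23.5 to 23.6 Mb with 3, 2, 2 and 2 and a mean of 2.25. A mean of 2.0 was shared by the bins from 22.1 to 22.2 Mb, with 1, 2, 4 and 1 peaks, from 23.6 to 23.7 Mb, with 1, 2, 3 and 2, and from 23.8 to 23.9 Mb, with 2, 2, 1 and 3. Neighbours in this order of fullness differed by less than the spread of the libraries, whose SD within a bin reached 1.41 peaks. Over the 9 bins of the histone blocks the mean was 1.81 peaks per bin, against 0.760 on the rest of the chromosome, where the fullest bin had a mean of 5.5.

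Empty bins, with no peak in any list, made up 13 of the 22 (59.1%), against 539 of the 1148 other bins of the chromosome (47.0%). They were the first bin of the window, from 21.7 to 21.8 Mb, and 12 of the 13 bins of the receptor gene stretch, which formed 1 run from 22.2 to 23.4 Mb. Chromosome 13 had 176 empty runs, of which 7 were longer than this run, up to 24 bins. Counting this run itself, 2 had its length. In base pairs, the longest stretch of the window without a region ran 1.35 Mb from chr13:22143331 to chr13:23493281. It ranked 8 among the 1366 gaps between regions of the chromosome, whose median was 31503 bp and whose longest was 2.54 Mb. Inside the window the median gap was 22315 bp and the second longest was 91407 bp.

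**Figure D3:**
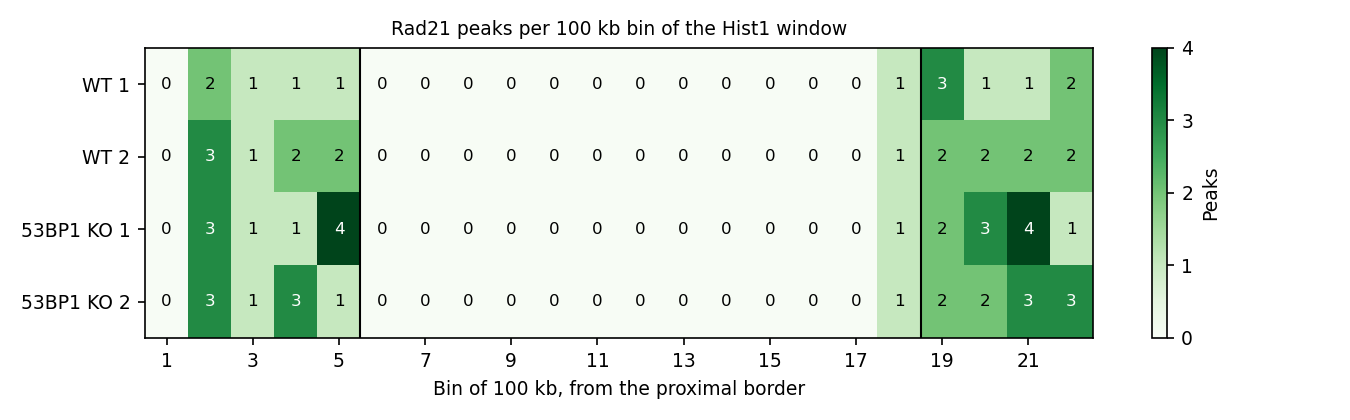
Number of Rad21 peaks in each 100 kb bin of the Hist1 window (columns, from the proximal border) in each library (rows), with black lines at the borders of the receptor gene stretch. Bins 6 to 17 are empty in all 4 libraries, and bin 2 is the fullest by mean, at 2.75 peaks.

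With regions joined where gaps were at most 50 kb, the 26 regions formed 6 blocks, 3 before and 3 after the longest gap. The longest spanned 122.7 kb at chr13:22020602-22143330 and closed the proximal side with 7 regions and 2, 4, 5 and 4 peaks per library. Across that gap, the next block was short and dense, with 4 regions in 31.5 kb at chr13:23493282-23524809, the first of them just inside the receptor gene stretch, 3 of them called in all libraries, and 4, 3, 3 and 3 peaks. It was followed by 5 regions over 106.7 kb at chr13:23616217-23722942 with 1, 3, 5 and 3 peaks, and by 6 regions over 108.9 kb at chr13:23775903-23884786 with 3, 3, 3 and 5 peaks. The other 2 blocks, at chr13:21806603-21826376 and chr13:21894719-21933026, held 2 regions each. Only the block at chr13:21894719-21933026 had the same number of peaks, 2, in every library. Since the gap length sets the blocks, their number was 16 with gaps of at most 20 kb and 2 with gaps of at most 100 kb, the latter broken only by the longest gap.

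Of the 26 regions, 11 were called in all 4 libraries (42.3%, Wilson 95% interval 25.5 to 61.1, counting error only). Over all 34743 regions this share was 41.7%, and on the rest of chromosome 13 it was 38.5%, so sharing in the window was near the background. A further 4 regions were called in 3 libraries and 2 in 2 libraries. The other 9 were called in a single library (34.6%), against 30.7% over all regions and 32.5% on the rest of chromosome 13. Of these 9, knockout replicate 1 had 5, knockout replicate 2 had 3, WT replicate 1 had 1 and WT replicate 2 had none. Knockout replicate 1 also had the longest list, with 25145 peaks, against 21971, 23029 and 22792 in WT replicate 1, WT replicate 2 and knockout replicate 2.

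Of the 4 regions called in 3 libraries, 3 lacked WT replicate 1, at chr13:21806603-21807122, chr13:23616217-23617025 and chr13:23722221-23722942, and the region at chr13:23884024-23884786 lacked knockout replicate 1. On the rest of chromosome 13, 46 of the 195 regions called in 3 libraries lacked WT replicate 1 and 73 lacked knockout replicate 2, the library most often missing there. WT replicate 2 and knockout replicate 2, of different genotypes, shared 16 regions, 94.1% of the former's and 84.2% of the latter's. The 2 WT libraries shared 12, 92.3% of replicate 1's and 70.6% of replicate 2's. The 2 knockout libraries shared 14, 70.0% and 73.7% of theirs. As a share of the regions called in either library, these overlaps were 80.0%, 66.7% and 56.0%. On the rest of chromosome 13 the same 3 pairs shared 56.8%, 65.0% and 55.9%, so their order in the window was not that of the chromosome, where the WT pair shared the most.

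The strength of the peaks was read from the authors' fold enrichment, a ratio of signal to background given for each peak. It is comparable only inside a list, so each peak was ranked by the percentile of its fold in its own list. By their medians, the 11 regions called in all libraries were among the stronger peaks of their lists. Such a region has to pass the calling limit in every list, which by itself selects for strong peaks. The same medians were not computed for the shared regions of other chromosomes, so this strength is not shown to be particular to the window. Their median fold percentile was 96.0, 88.7, 89.0 and 78.5 in the order of libraries given above, with single values from 17.7 to 99.5. Regions of a single library stood lower by their medians. The median fold percentile was 13.2 for the 5 of knockout replicate 1, with single values from 7.0 to 61.2. It was 36.4 for the 3 of knockout replicate 2, with single values from 30.0 to 91.3, the last above the 78.5 of that library's shared regions. The 1 region of WT replicate 1 stood at 48.6. Regions of a single library had a median width of 245 bp, against 793 bp for the regions of all 4 libraries, which are merged from several peaks and are wider for that reason too.

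Ranked by the lowest of their 4 fold percentiles, the shared regions opened with chr13:23516390-23516809 in the distal block. Fold enrichment there was 5.98 and 5.77 in the WT libraries and 6.73 and 5.11 in the knockout libraries, at percentiles of 96.0, 95.6, 97.8 and 96.8. It was thus high in all 4 lists, and at 420 bp it was the narrowest shared region. At chr13:21932404-21933026 in the proximal block the fold was 6.78, 5.20, 5.82 and 4.27, with percentiles of 98.8 and 88.7 in WT and 91.8 and 80.9 in the knockout, which overlapped. The widest region of the window, 1197 bp at chr13:22065876-22067072, had folds of 6.34, 5.97, 5.02 and 4.17 and percentiles of 97.8 and 97.0 in WT and 78.7 and 77.4 in the knockout. Folds at chr13:23824107-23825077 were 5.69, 5.63, 4.81 and 4.13, with percentiles of 93.6 and 94.4 in WT and 73.3 and 75.3 in the knockout. At both of these the WT percentiles lay above the knockout percentiles without overlap.

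At chr13:22120343-22121149 the fold was 6.95 and 4.52 in the WT libraries and 5.77 and 4.38 in the knockout libraries. At chr13:23689704-23690424 it was 5.05, 4.48, 5.51 and 4.21, and at chr13:21825456-21826376 it was 6.21, 4.45, 5.59 and 5.20. In each of these 3 regions the WT and knockout percentiles overlapped, and WT replicate 2 had the lowest. At chr13:23524275-23524809 the percentiles were 76.8 and 65.7 in WT and 96.8 and 95.7 in the knockout, without overlap, with folds of 4.77, 4.40, 6.47 and 4.98.

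The remaining 3 shared regions had their lowest values in the knockout libraries. The region at chr13:21894719-21895303 had folds of 5.54, 6.24, 5.64 and 3.86, with percentiles of 92.0 and 98.2 in WT and 89.6 and 61.9 in the knockout. At chr13:23792791-23793730 folds were 7.47, 5.89, 5.43 and 3.86, and the peak of WT replicate 1 was the strongest of the window by percentile, at 99.5. The last of the 11, at chr13:23493282-23494074, was the lone region inside the receptor gene stretch, with folds of 4.41, 4.56, 3.49 and 3.46. It lay below the middle of the list in both knockout libraries, at percentiles of 17.7 and 35.1 against 64.1 and 71.8 in WT. By position it lay 22315 bp from the first region of the distal block, and the borders of the segments are approximate.

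In all, 5 of the 11 shared regions (45.5%) had both knockout percentiles below both WT percentiles, against 16.1% of the 14484 regions called in all 4 libraries across the placed chromosomes. The opposite order stood in 2 of the 11 (18.2%), against 18.7%, and the other 4 overlapped. These orders were counted after the values were seen, and ranks from lists of different length and strength show no change in binding by themselves. With 2 libraries a genotype no single region could pass an exact test.

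**Figure D4:**
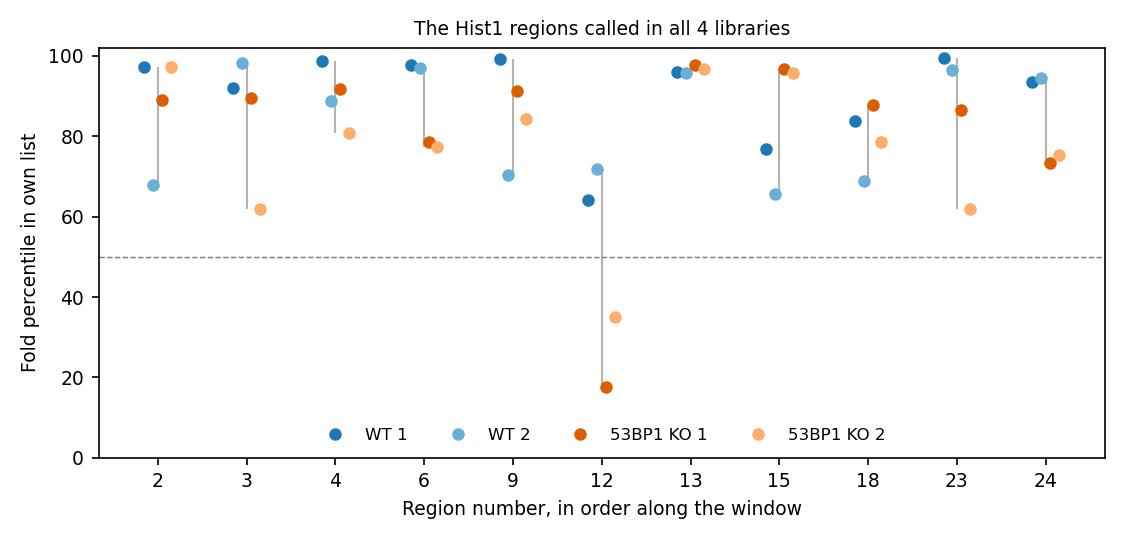
Percentile of the authors' fold enrichment in its own list (0 to 100) for the 11 regions called in all 4 libraries, numbered along the window, with 1 point per library, a grey line from the lowest to the highest and a dashed line at 50. Region 13, at chr13:23516390-23516809, lies above 95 in every library, and region 12, in the receptor gene stretch, falls to 17.7.

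Peaks of the window stood higher in their lists than those of the rest of chromosome 13. The median fold percentile was 93.6, 70.3, 73.2 and 64.6 inside, against 51.7, 52.6, 48.7 and 51.1 outside, a mean difference of 24.4 ± 12.5 points (SD, n = 4). Inside was above outside in 4 of 4 libraries, with a two-sided exact sign-flip permutation p of 0.125, the lowest possible, and 0.156 after adjustment. As folds these medians were 5.69, 4.52, 4.81 and 3.91 inside and 4.13, 4.11, 4.11 and 3.69 outside. Among peaks of 4-fold or more, the percentile difference was 10.4 points, with an exact permutation p of 0.25. Ranked by the deposited −log10 q instead of the fold, the difference was 16.7 ± 11.1 points, in the same direction in 4 of 4 libraries, with the same exact permutation p of 0.125. The peaks were also narrower, with a median width of 414, 389, 406 and 492 bp inside and 489, 498, 463 and 549 bp outside. This difference of -74.5 ± 24.5 bp had the same direction in 4 of 4 libraries and the same exact permutation p of 0.125, and among peaks of 4-fold or more it was -54.1 bp with an exact permutation p of 0.25.

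The number of strong peaks, those whose −log10 q was 5 or more, ranged from 0 to 8 between the libraries. In WT replicate 1, 8 of 13 peaks passed (61.5%, exact 95% binomial interval 31.6 to 86.1), against 23.3% (20.4 to 26.4) on the rest of the chromosome. In WT replicate 2, 6 of 17 passed (35.3%, 14.2 to 61.7), against 23.8%, and in knockout replicate 1, 8 of 20 passed (40.0%, 19.1 to 63.9), against 22.9%. In knockout replicate 2 it was 0 of 19, which allows a share of up to 15.8% by the limit of 3 counts (exact upper bound 17.6%), against 14.8% (12.6 to 17.4) on the rest of the chromosome. The highest −log10 q of the window in that library was 4.96, just short of the threshold. Its whole list also had the smallest share of such peaks, 16.5%, where the other lists had 25.9 to 27.7%. The interval of WT replicate 1 lay wholly above that of the rest of its chromosome, and in the other 3 libraries the intervals overlapped. These intervals cover counting error only and treat neighbouring peaks of 1 library as independent. They do not show a difference over libraries, and no test over libraries was made for this share.

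**Figure D5:**
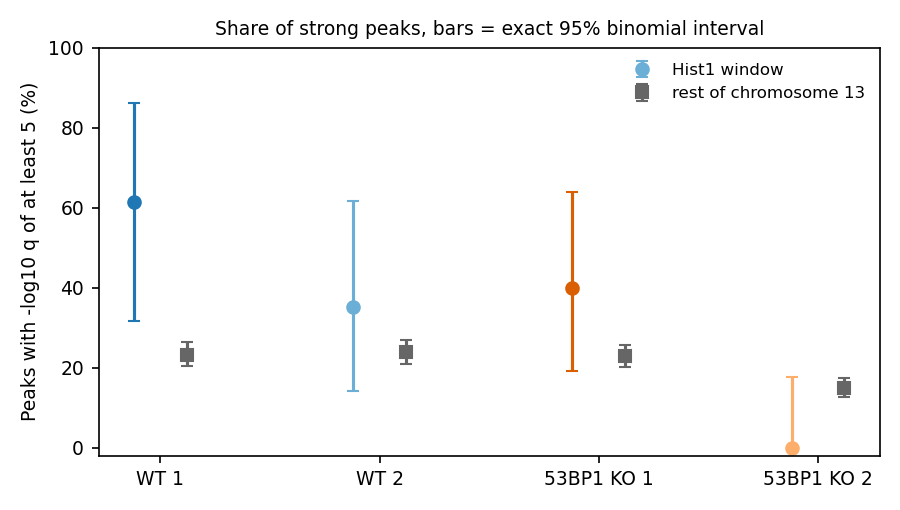
Percent of peaks whose −log10 q was 5 or more in each library, in the Hist1 window (circles) and on the rest of chromosome 13 (squares), with exact 95% binomial intervals as bars. The window shares run from 0% in knockout replicate 2 to 61.5% in WT replicate 1.

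Between the genotypes the knockout libraries listed more Hist1 peaks than the WT libraries, by an amount that the design cannot separate from the spread. There were 13 and 17 peaks in WT (15.0 ± 2.83, SD, n = 2) and 20 and 19 in the knockout (19.5 ± 0.707), without overlap. This difference of 4.5 peaks (1.3-fold) had a two-sided exact permutation p of 0.333, the lowest that 2 against 2 libraries can give. It was 2.5 without WT replicate 1. It turned to -1.5 when only peaks of 4-fold or more were kept and to -3.0 when the minimum −log10 q was 5. Knockout replicate 2 was also the lowest library on the rest of chromosome 13 under both limits. It held 2.52 peaks of 4-fold or more per Mb there, where the other libraries held 3.85 to 4.41. At the −log10 q limit it held 1.10, where the others held 1.59 to 1.84. The part of that weaker list in the turned differences was not tested. With all listed peaks, the knockout was also higher on the rest of chromosome 13, where WT had 807 and 860 peaks, the knockout 949 and 876 (1.09-fold). Per 1000 peaks of the whole list the window held 0.592 and 0.738 in WT and 0.795 and 0.834 in the knockout, without overlap and with an exact permutation p of 0.333. With the 21971 strongest peaks of every list, which equalises list length, the window held 13 and 16 in WT and 14 and 19 in the knockout, which overlapped, and the difference was 2.0 (exact permutation p = 0.667).

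Covered length differed in the same direction, at 5148 and 7030 bp for WT, 8615 and 10338 bp for the knockout. The difference of 3387.5 bp (1.56-fold) again had the lowest exact permutation p of 0.333, and it was -711.5 bp when the minimum −log10 q was 5. It was 757 bp with peaks of 4-fold or more and 2253 bp with lists of equal length (exact permutation p = 0.667 for the latter). As a share of the window, peaks covered 0.234% and 0.320% in WT and 0.392% and 0.470% in the knockout, against 0.373%, 0.393%, 0.414% and 0.456% on the rest of the chromosome. These shares spread more widely inside the window than outside it. By segment, the proximal block held 6.5 ± 2.12 peaks in WT and 8.5 ± 0.707 in the knockout (SD, n = 2 each, exact permutation p = 0.667). The distal block held 7.5 ± 0.707 and 10.0 ± 0, where the exact permutation p was 0.333. The receptor gene stretch held 1 in each of the 4 libraries.

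No region followed the genotype. Of the 26 regions, 0 were called in both knockout libraries and in neither WT library, against 3.05% of all regions, and 0 were called in both WT libraries and in neither knockout library, against 2.19%. A count of 0 of 26 allows a share of up to 11.5%, so it cannot be told apart from the background rates. Of the 100 kb bins, 1 of 22 had both knockout counts above both WT counts, against 3.61% of all bins, and 0 of 22 had both below, against 1.84%. The bin was the one from 23.7 to 23.8 Mb, where the WT libraries had 1 and 2 peaks, the knockout libraries 4 and 3. Of its regions, chr13:23792791-23793730 was called in all 4 libraries and chr13:23722221-23722942 in all but WT replicate 1. Knockout replicate 1 added chr13:23702836-23703241 and chr13:23789364-23789610, and knockout replicate 2 added chr13:23775903-23776245, each called in that library alone. The bin was no longer separated when fold, −log10 q or an equal number of peaks per list limited the peaks.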

How the data were processed

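Rad21 ChIP-seq was analysed in 4 libraries, 2 WT and 2 with a 53BP1 knockout, grouped by the sample titles. Per the labels' protocols, chromatin fixed with 1% formaldehyde was sonicated, immunoprecipitated, tagmented while on beads and sequenced paired-end. Per the submitters' processing notes, the tools were MACS2 2.2.7.1, deepTools 3.5.1, SAMtools 1.15.1 and Bowtie2 2.4.4, and the build was mm9. Parameters were not given in the sources used here, and neither was any control library. A separate headerless list of 9 columns was deposited per library, so peaks were not called on pooled samples. The authors' fold is a ratio of signal to background for each peak. Their deposited −log10 p and −log10 q give its significance, and the lowest −log10 q was 1.01. The score the authors deposited equals that −log10 q times 10, cut to a whole number. The lists give no read counts, so depth is unknown and only the number of libraries limits the precision that can be stated.

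Only chromosomes 1 to 19 and X entered. Peaks sharing at least 1 bp or touching were merged into regions, and a peak was counted in the 100 kb bin that holds its middle. A fold percentile is the share of a list's peaks ranked below a peak. Genotypes were compared by two-sided exact permutation over 2 against 2 libraries, and the window with the rest of chromosome 13 by two-sided exact sign-flip permutation over the 4 libraries. Intervals of a share are Wilson or exact binomial and cover counting error only. Regions named are the shared ones by their lowest fold percentile, with the widest, those that follow genotype and blocks of 3 or more. The eleventh shared region, the regions missing from 1 library and those of the bin from 23.7 to 23.8 Mb were added after their values were seen. The window, segments and rules were chosen with earlier results of these data known.

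Replicate numbers were not treated as pairs: over 2296 windows of 1 Mb the knockout minus WT deviations of same-numbered libraries correlated at 0.0744, and the labels give the numbers no meaning. Gene order, promoter sequences and symbols came from RefSeq tables of GRCm38.p6, whose coordinates were not mixed with those of the peaks. Calculations used Python 3.11.15, numpy 2.4.6, pandas 2.3.3, scipy 1.17.1, statsmodels 0.14.6 and matplotlib 3.10.9, and the functions were tested on simulated data with known answers.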

Additional observations from a re-analysis of the deposited data

How the results depend on the processing

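Apart from leaving out libraries, 61 values were recomputed under other settings, of which 47 kept their direction and, for counts of regions or bins, stayed within 1.5 times the reported count. Several of these 47 still moved by more than 1.5 times, as given here. Others could not move, so the 47 overstates how many results were put to a trial. No peak crossed the border of the window, so counting peaks that overlap it changed no value. Merging peaks within 500 bp changed no region count, as the smallest gap between regions of the window was 1351 bp. The replicate block, given below, equals the main values by construction. With peaks limited to a −log10 q of at least 5, the knockout minus WT difference was -3.0 peaks and -711.5 bp, the share of regions called in all libraries was 0%, regions in both WT libraries alone were 2, and bins with the knockout higher or lower were 0 and 2. Blocks exceeded the receptor stretch by 6.11 peaks per Mb. No mean log2 density ratio, fold percentile or width could be had there over all libraries, because knockout replicate 2 had no such peak. With a fold of at least 4 the difference was -1.5 peaks and 757 bp, the log2 density ratio 0.55, the fold percentile difference 10.4 points, regions in both WT libraries alone were 1, and bins with the knockout higher or lower were 0 and 1. With the strongest 21971 peaks of every list, bins with the knockout higher were 0 and the differences were 2.0 peaks and 2253 bp. Against the rest of all placed chromosomes the log2 density ratio was -0.19, and with chromosome 13 counted from its first peak, an alternative chosen after seeing the data, it was 0.03. Blocks of regions numbered 16 with gaps of at most 20 kb and 2 with gaps of at most 100 kb. With the segment borders moved into the histone blocks, the blocks exceeded the receptor stretch by 13.6 peaks per Mb. The cause of these shifts was not tested.

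With each library left out in turn, every result kept its direction: the peak difference was 2.5 to 6.5, covered length 2446.5 to 4328.5 bp, log2 density ratio 0.02 to 0.16, blocks minus receptor stretch 16.3 to 18.9 peaks per Mb, fold percentile difference 18.6 to 28.1 points and width difference -80.3 to -63.0 bp. The replicate block, the mean difference within replicate numbers, gives the same 4.5 peaks and 3387.5 bp by construction, with differences of 7 and 2 peaks and of 3467 and 3308 bp. With peak lists, unknown depth limits which weak peaks are listed.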
